A study of Homo sapiens with 10 samples.

Results

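The acceptor pairs described here are introns that begin at the same 5′ splice site and end at 3′ splice sites (acceptors) 4 to 100 nucleotides (nt) apart, so that both products differ by the short stretch between the acceptors. Pairs were chosen by read number alone: each of both introns needed at least 10 split reads, that is reads that span the splice junction, summed over the 10 libraries, whatever the condition. The reads that fill this sum are also those that give the share, so the shares over all libraries are a description. The rule gave 1058 pairs out of 10807 pairs of the series that share a 5′ splice site. They use 947 5′ splice sites in 805 genes, and 82 pairs (7.75%) lie in no annotated gene. The other pairs have acceptors 1 to 3 nt apart (631 pairs) or more than 100 nt apart (9118 pairs). The acceptor nearer to the 5′ splice site is called proximal and the one further downstream distal, and the measure used throughout is the distal share, the percentage of the pair's split reads that end at the distal acceptor.

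The libraries are polyadenylated RNA of A549, a human lung adenocarcinoma cell line, read by RNA-seq in 5 conditions with 2 libraries each: α-amanitin at 1 and at 2 μg/mL, each for 24 h, DRB at 10 and at 25 μg/mL, and DMSO. α-amanitin binds RNA polymerase II and slows its movement along DNA. DRB inhibits kinases that phosphorylate the polymerase and its elongation factors. For how long the cells were kept in DRB or DMSO, no source used here says. All groups are the same cell line, and nothing states that the 2 libraries of a condition came from separate cultures, so the p-values measure only the spread between these libraries, which may be technical.

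An intron ends at an AG dinucleotide that follows a stretch rich in pyrimidines. In the first step of spliceosome assembly at this end, SF1 binds the branch point and the U2AF heterodimer binds the pyrimidine stretch and the AG, after which the U2 snRNP takes the place of SF1. Where a second AG lies near the first, the spliceosome can join the 5′ splice site to either. In a coding exon, acceptors that lie a multiple of 3 nt apart add or remove whole codons, whereas other distances shift the reading frame.

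The sequences below are the last 20 bases of the intron and the first 3 bases of the exon on the transcribed strand, read from the GRCh37 (hg19) genome, with the last 2 bases of the intron in capitals. The first set belongs to 5 of the 6 pairs whose distal share passed the test at 25 μg/mL DRB, and is shown because the condition comparison turns on it.
BAX proximal, chr19:49464720-49464742, + strand: tcccgcctctgcctgcccAGggg
BAX distal, chr19:49464769-49464791, + strand: actgatgtccctgtctccAGgac
TNIP1 proximal, chr5:150410306-150410328, - strand: caaaatttttgtttatttAGagt
TNIP1 distal, chr5:150410232-150410254, - strand: gctccaccttcatcttgcAGagc
BCL2L1 proximal, chr20:30310149-30310171, - strand: attatttttttttcctgaAGctc
BCL2L1 distal, chr20:30310131-30310153, - strand: agctctttctctcccttcAGaat
SNHG29 proximal, chr17:16342822-16342844, + strand: cctgatgatacttgtaatAGgaa
SNHG29 distal, chr17:16342875-16342897, + strand: taatgtctatctgaccgcAGtcg
TPX2 proximal, chr20:30386148-30386170, + strand: ttttctgtttctgtacttAGagg
TPX2 distal, chr20:30386169-30386191, + strand: gggcctttctggttctctAGttc

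A second set shows pairs in which the proximal intron ends in TG instead of AG, a class described below. PCBP2 encodes a poly(C)-binding protein, PTPN11 the phosphatase SHP2 and HNRNPR an RNA-binding protein of the hnRNP family. The third set shows how close both AGs can lie, in single runs that hold both acceptors of ACLY (ATP citrate lyase), LSM7 (a subunit of the Lsm ring of the U6 snRNP) and SF1 (the branch point binding protein). The last pair is that of STAT3, a transcription factor whose β isoform arises from the distal acceptor shown.
PCBP2 proximal, chr12:53856245-53856267, + strand: ttttgtttttttcccctcTGact
PCBP2 distal, chr12:53856257-53856279, + strand: cccctctgactctctcccAGtcc
PTPN11 proximal, chr12:112924247-112924269, + strand: ttcttttctggtttttctTGgct
PTPN11 distal, chr12:112924259-112924281, + strand: ttttcttggctctactccAGggg
HNRNPR proximal, chr1:23645188-23645210, - strand: gcttatatatctggctgtTGgtt
HNRNPR distal, chr1:23645179-23645201, - strand: tctggctgttggtttaacAGagg
ACLY, both acceptors, chr17:40070147-40070173, - strand: gaccagcttctctctcccAGacAGgta
LSM7, both acceptors, chr19:2324189-2324215, - strand: cccccggtgatttctccaAGccAGtgg
SF1, both acceptors, chr11:64534716-64534743, - strand: tgctctttccttccatcaAGatcAGtac
STAT3 proximal, chr17:40468917-40468939, - strand: ctgccccccatttcctacAGaac
STAT3 distal, chr17:40468867-40468889, - strand: gatgtccccccgcactttAGatt

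Most pairs lie in coding sequence. The first exon base after the distal acceptor was coding in 770 pairs (72.8%), in a 5′ UTR in 108 (10.2%), in a noncoding gene in 50 (4.73%) and in a 3′ UTR in 23 (2.17%). The distance was a multiple of 3 nt in 500 of the 1058 pairs (47.3%). That share was 53.0% in the 770 coding pairs, against 26.9% in the 108 pairs of 5′ UTRs and 20% in the 50 pairs of noncoding genes. In the 23 pairs of 3′ UTRs it was 30.4%, and in the 82 pairs in no annotated gene 42.7%. In intronic or untranslated exons of protein-coding genes, 11 of 25 pairs had such a distance. The classes other than coding thus differed among themselves. The share was 34.9% in the pairs more than 100 nt apart. The commonest single distances were 4 nt (65 pairs) and 5 nt (47 pairs), followed by 4 multiples of 3: 21, 18, 15 and 24 nt with 39, 38, 35 and 32 pairs. These counts describe the chosen pairs and carry no test.

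**Figure D1:**
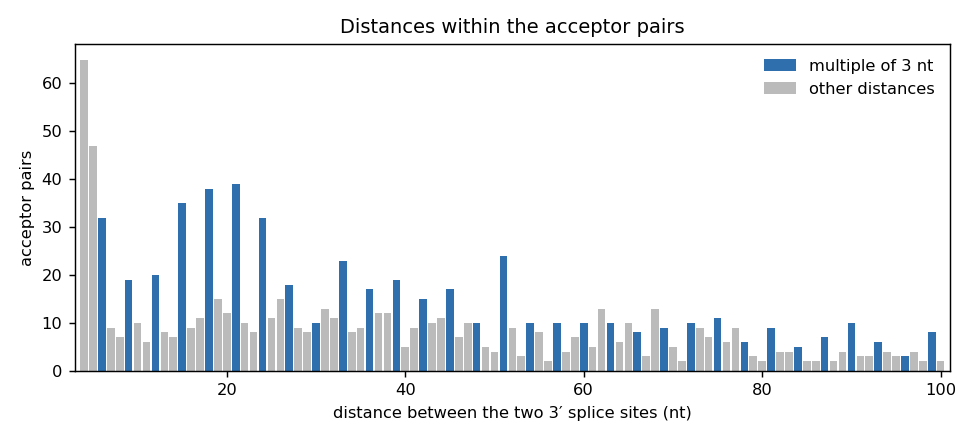
Number of acceptor pairs (vertical axis) at each distance between the acceptors in nt (horizontal axis), with distances that are multiples of 3 in blue and the others in grey. The highest bars are at 4 nt (65 pairs) and 5 nt (47 pairs), and beyond them the tallest bars are the blue ones at 21, 18, 15 and 24 nt.

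How the reads divided between the acceptors varied with the distance. Over all libraries the median distal share was 41.8% with quartiles at 9.60 and 76.5%, and the distal acceptor had more reads in 454 pairs (42.9%). Pairs 4 to 6 nt apart (144 pairs) had the lowest median distal share, 17.8%, and those 13 to 24 nt apart (224 pairs) the highest, 63.8%. At 7 to 12 nt (71 pairs) the median was 42.0%, at 25 to 48 nt (289 pairs) 43.8% and at 49 to 100 nt (330 pairs) 40.5%. The minor acceptor took at least 20% of the reads in 439 pairs (41.5%) and under 5% in 297 (28.1%). The reads of a pair had a median of 269 and a highest value of 99043.

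The thresholds of the rule did not fall at a visible step in the distal share. The 191 pairs whose weaker acceptor had 10 to 12 reads had a median distal share of 42.3%, and the 319 pairs just outside the rule, with 7 to 9 reads, one of 44.4%. The 38 pairs with a distance of 91 to 100 nt had a median of 26.1%, and the 54 pairs just past the limit, up to 110 nt, one of 26.4%.

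Both introns of 707 pairs (66.8%) were in the GENCODE annotation, and neither in 126 (11.9%). The proximal intron was annotated in 860 pairs (81.3%) and the distal one in 779 (73.6%). Both introns ended in AG in 998 pairs (94.3%). An annotated proximal intron ended in TG, with a distal AG, in 11 pairs of 11 genes: HNRNPR, PCBP2, PTPN11, DLG4, CNBP, RYK, TNPO1, SRPK1, SRRT, GOLGA7 and TSPYL2, all named here because the class is small. Their acceptors were 5 to 28 nt apart, 8 of the 11 distances were multiples of 3, and their distal shares ran between 19.5 and 98.0% with a median of 80.4%. The TG acceptor had more reads than the AG in 4 of the 11, PCBP2, DLG4 (a postsynaptic scaffold protein), RYK (a WNT receptor) and SRRT (a cofactor of capped RNA).

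The acceptor sequences were scored with a position weight matrix, in which a higher score in bits means more likeness to the common acceptor. It was built from 51633 annotated AG acceptors of these libraries, each the only listed acceptor of its 5′ splice site, with at least 100 reads. Scored with this same matrix, those reference acceptors had a median of 9.55 bits. The acceptors of the pairs needed only 10 reads, so the comparison is not like for like. Across the 998 AG pairs the medians were lower for both acceptors, 6.16 bits for the distal and 7.03 bits for the proximal one. Acceptors of unannotated introns had a median of 4.28 bits where distal and 5.39 bits where proximal, against 6.59 and 7.21 bits for those of annotated introns.

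The acceptor with more reads had the higher score in 651 of the 998 pairs (65.2%). Where the distal acceptor scored more than 6 bits below the proximal one (132 pairs), the median distal share was 13.7%, and where it scored more than 6 bits above (83 pairs), 83.6%. In the 4 bins between, in order of rising score difference, the median distal share was 22.2, 28.5, 54.7 and 66.4%. Across the 998 pairs Pearson's r between the score difference and the distal share was 0.36, a description only, since pairs can share acceptors and libraries. The score left much of the spread: the quartiles of the bin just above a difference of 0 were 18.4 and 87.7%.

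**Figure D2:**
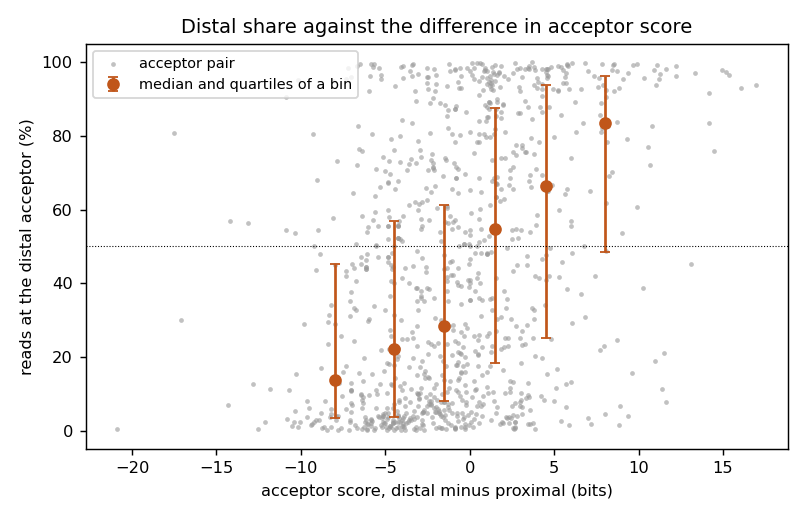
Distal share over all reads in % (vertical axis) against the acceptor score of the distal minus that of the proximal acceptor in bits (horizontal axis) for 998 pairs that end in AG at both acceptors, each a grey point. Orange points and bars are the median and quartiles of 6 bins of the score difference, whose medians rise through 13.7, 22.2, 28.5, 54.7, 66.4 and 83.6%.

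Both acceptors also differed in the base before the AG. It was C in 76.3% of distal and 60.3% of proximal acceptors, against 62.6% of the reference acceptors. It was G, the rarest base there, in 1.10% of distal and 4.01% of proximal acceptors. Where the acceptors lay 13 nt or more apart, no further AG stood between them in 295 of 814 pairs (36.2%), and at least 1 did in the rest. At 12 nt or less none stood between them in 170 of 184 pairs (92.4%).

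The same acceptor pair was joined from more than 1 5′ splice site in 31 cases, which cover 66 of the 1058 pairs. Between the most used 5′ splice sites of such a case, the distal share differed by a median of 8.80 percentage points, against 35.7 points between any 2 of the 1058 pairs. In 25 of the 31 cases both shares lay on the same side of 50%. These joint pairs are not independent of each other, and 61 5′ splice sites carry more than 1 of the pairs. Reads at near-identical copies can be assigned to either, and 24 acceptor sequence pairs, with 61 members, occur at more than 1 place in the genome. A further uncertainty applies to 15 pairs whose proximal and distal windows are identical in sequence, among them that of SON, a splicing cofactor with tandem repeats, at 53 nt.

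The depth of the libraries sets what a comparison can show. They held 2899344 to 6498515 split reads, the fewest in replicate 1 of 25 μg/mL DRB, and listed both introns of 363 to 674 of the 1058 pairs. An intron was listed in a library only with at least 3 reads, so an unlisted one had at most 2 or failed the authors' filters. The test therefore used pairs listed on both sides, with 10 reads or more, in every library of the fit, which were the 2 doses of a drug and DMSO: 223 pairs for α-amanitin and 117 for DRB. As markers of identity, 8 of 10 genes on the A549 list had reads, with KRT19 and GPX2 without reads. The 8 summed to 3531 to 7203 CPM (reads scaled to the library's total) in treated libraries and 6466 to 7080 in DMSO. Of 5 leukocyte markers 2 had reads, summing to 0 to 30.5 CPM in treated libraries and 0 in DMSO, with PTPRC, CD3E and TYROBP without reads. Of 5 fibroblast markers 1 had reads, at 0 to 115 CPM in treated libraries and 13.1 to 166 in DMSO, with COL1A2, COL3A1, DCN and LUM without reads. The part of such reads in the results was not tested.

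In the 107 pairs testable in all 10 libraries, the distal share varied over the libraries by a median of 16.6 points. This range was under 10 points in 34 pairs and over 40 points in 10. In 78 of the 107 pairs the share stayed on the same side of 50% in every library. Replicates of a condition differed by a median of 3.94 points at 1 μg/mL α-amanitin, 2.53 at 2 μg/mL, 3.72 at 10 μg/mL DRB, 3.71 at 25 μg/mL and 4.02 in DMSO. Sampling of reads alone gives medians of 3.69, 3.66, 3.81, 4.57 and 4.04 points in the same order, which is of the same size.

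The middle of the distribution lay slightly above DMSO in 2 of the 4 treated groups. The median distal share of the 107 pairs was 45.1 and 43.8% at 2 μg/mL α-amanitin and 43.9 and 42.6% at 10 μg/mL DRB, above the 42.2 and 41.2% of the DMSO libraries. The values at 1 μg/mL α-amanitin, 41.5 and 42.1%, and at 25 μg/mL DRB, 48.4 and 41.4%, overlapped DMSO. No dose was tested singly, with 2 libraries against 2. The median distal share of the 107 pairs averaged 41.8 ± 0.40% at 1 μg/mL α-amanitin, 44.5 ± 0.94% at 2 μg/mL, 43.2 ± 0.98% at 10 μg/mL DRB, 44.9 ± 4.96% at 25 μg/mL DRB and 41.7 ± 0.70% in DMSO (SD, n = 2 each). The 8 treated libraries averaged 43.6% and the DMSO libraries 41.7%, a difference of 1.92 points (two-sided exact permutation test, p = 0.222, where 0.0444 is the smallest p that 8 against 2 libraries allow). With at least 30 reads of a pair in every library (67 pairs) the sign turned, at -1.62 points (exact permutation p = 0.444).

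The α-amanitin comparisons ask whether slowing the polymerase is accompanied by a different choice between nearby acceptors. No pair passed an adjusted p of 0.05 at either dose (quasi-binomial test, Benjamini-Hochberg adjustment over 1773 acceptor pairs of any distance). At 1 μg/mL 4 of the 223 pairs (1.79%) had an unadjusted p under 0.05, the lowest adjusted p was 0.793, and limma on the log odds called 0. At 2 μg/mL 12 (5.38%) had an unadjusted p under 0.05, the lowest adjusted p was 0.206, and limma again called 0. Over all 1773 pairs tested, 0% passed the adjusted threshold at the lower dose and 0.169% at the higher, and 5.7% and 16.3% had an unadjusted p under 0.05. The test was also run on simulated data of the 2 μg/mL comparison with 1773 pairs. At the lower spread set it recovered 25% of pairs shifted by 2 log2 odds and 4% of those shifted by 1. At the higher spread set it recovered 4% and 0%. Most simulated shifts of either size were thus missed. The median spread of the 223 pairs stood at 1, the lowest value that the test allows. Whether the simulated spreads match that of these pairs was not tested, so the recovery holds for the settings used only. The lack of calls does not exclude such shifts.

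The median change in distal share was 0.085 points at 1 μg/mL and 0.67 points at 2 μg/mL, against 0.28 and 0.58 points over all tested pairs. Both treated libraries lay above both DMSO libraries in 37 pairs and below in 35 at 1 μg/mL, or 16.6% and 15.7% of 223, where all tested pairs gave 22.7% and 15.5%. At 2 μg/mL the counts were 62 above and 30 below, 27.8% and 13.5%, where all tested pairs gave 28.5% and 19.9%. These shares are near the background or under it.

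The pairs of at least 50 reads in every library of the fit with the largest separated change are given as a description. SNRNP70, the gene of the U1 70K protein, had distal shares of 33.6 and 32.0% at 1 μg/mL α-amanitin, 31.1 and 38.6% at 2 μg/mL, and 45.0 and 44.4% in DMSO at its 27 nt pair. All 4 treated libraries lay below both DMSO libraries, with adjusted p of 0.793 and 0.272. EIF3B, a subunit of the translation initiation factor eIF3, had 38.6 and 40.5% at the lower dose, 38.1 and 43.5% at the higher, and 59.8 and 48.2% in DMSO at its 75 nt pair in the 3′ UTR. Here too the 4 treated libraries were lower than both DMSO libraries, with adjusted p of 0.793 and 0.242. The DRB libraries of this pair were lower as well, at 35.1 and 38.6% with the lower dose and 37.5 and 32% with the higher. These are changes of -17.2 points (adjusted p = 0.11) and -19.3 points (adjusted p = 0.0733), against the same DMSO libraries. In the fits that set unlisted introns to 0 and to 2 reads, described later, the second adjusted p was 0.0434 and 0.0336. All introns of this pair were listed, so those fits changed the set of pairs and none of its reads. With 0 reads its unadjusted p was 0.0179, against 0.0132 in the main test.

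CIAPIN1, a protein of cytosolic iron-sulfur assembly, had 9.0 and 20.8% at the lower dose, 11.9 and 17.9% at the higher, and 5.5 and 6.1% in DMSO at its 39 nt pair. Both DMSO libraries were the lowest, and the replicates at 1 μg/mL were far apart. RNH1, the ribonuclease inhibitor, had 66.7 and 57.6% at 1 μg/mL and 42.1 and 53.2% in DMSO at 68 nt, but 49.1 and 50.6% at 2 μg/mL, within the DMSO range. PTPN11, whose proximal acceptor is the TG shown above, had 79.8 and 89.8% at 1 μg/mL and 74.7 and 77.2% in DMSO, with overlapping values at 2 μg/mL. The STAT3 pair at 19 nt, in the 5′ UTR, had 31.4 and 29.5% at 1 μg/mL and 44 and 37.6% in DMSO, and at 2 μg/mL its 32.8 and 39.5% overlapped DMSO.

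At 2 μg/mL the ACLY pair at 4 nt, shown above, had 59.0 and 59.3%, against 50.0 and 44.8% in DMSO. TIAL1, an RNA-binding protein of stress granules, had 84.2 and 83.8% at 51 nt, against 68.1 and 78.7% in DMSO. MORF4L2, a chromatin protein, had 25.9 and 30% at 31 nt, against 13.8 and 20.2% in DMSO. In each of these 3 pairs the groups did not overlap, and the adjusted p lay between 0.339 and 0.432. The SNHG29 pair at 53 nt, in a long noncoding RNA that hosts a small nucleolar RNA, had 25.0 and 20% at 2 μg/mL, against 40.2 and 35.3% in DMSO (adjusted p = 0.273).

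The DRB comparisons ask the same of an inhibitor of elongation kinases, and pairs were called at the higher dose. With 10 μg/mL 0 of 117 pairs passed the adjusted threshold, 14 (12%) had an unadjusted p under 0.05, and the lowest adjusted p was 0.101, that of CIAPIN1; limma on the log odds called 1. At 25 μg/mL 6 of 117 pairs (5.13%) passed, 2 with a higher and 4 with a lower distal share, and 18 had an unadjusted p under 0.05 (15.4%). The background over all 908 pairs tested was 4.74% for the lower dose and 11.6% for the higher, and the pairs 4 to 100 nt apart stood below it at both. The difference between the doses was not tested. Of the 125 tested pairs 1 to 3 nt apart 0 were called at either dose, and of the 666 over 100 nt apart 43 were called at 10 μg/mL and 99 at 25 μg/mL.

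The size of the changes gave the same order. The absolute change in distal share had a median of 4.02 points at 10 μg/mL and 4.87 points at 25 μg/mL, against 4.61 and 6.58 points over all tested pairs. Changes over 10 points made up 20.5% of the pairs at 10 μg/mL and 26.5% at 25 μg/mL, against 26.1% and 37.1% of all tested pairs. Both treated libraries lay above both DMSO libraries in 38 pairs at 10 μg/mL (32.5%, background 33.7%) and 41 at 25 μg/mL (35.0%, background 37.7%). They lay below in 18 (15.4%, background 22.1%) and 26 (22.2%, background 24%).

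**Figure D3:**
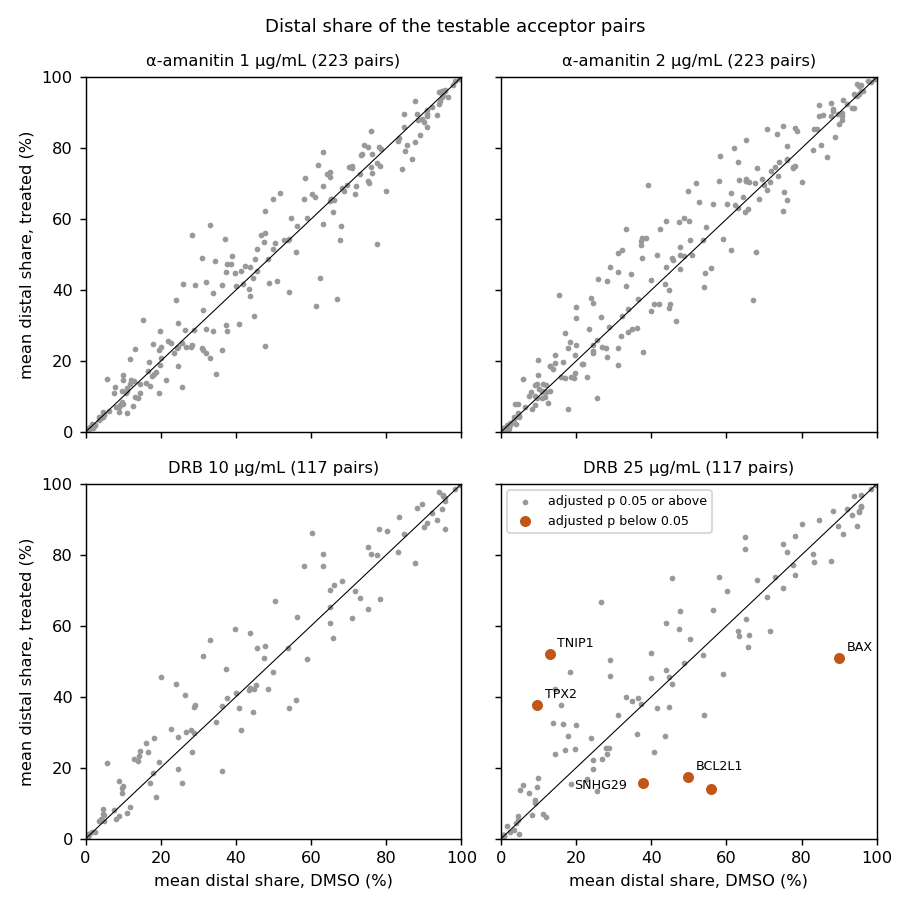
Mean distal share in treated libraries in % (vertical axis) against that in DMSO libraries (horizontal axis) for each testable pair, with a panel for each drug dose (n = 2 libraries a group) and a line where both are equal. Orange points are the 6 pairs with an adjusted p below 0.05, all at 25 μg/mL DRB: TNIP1 and TPX2 are above the line, and BAX, BCL2L1 and SNHG29 are among those below it.

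Of the 6 called pairs, 4 had a lower distal share at 25 μg/mL DRB, among them those in BAX, BCL2L1 and SNHG29. BAX, a pro-apoptotic member of the BCL2 family, had its distal share at 58.7% (37 of 63 reads, Wilson 95% interval 46.4 to 70.0%) and 43.3% (61 of 141, 35.4 to 51.5%) at 25 μg/mL DRB, against 90.7% (68 of 75, 82.0 to 95.4%) and 89.3% (117 of 131, 82.9 to 93.5%) in DMSO. The other 6 treated libraries, with 85.3 to 89.3%, were near DMSO, so the 2 libraries at 25 μg/mL stood alone. The change was -39.0 points, or -3.22 ± 0.42 (SE) on the log2 odds scale, with an adjusted p of 0.0108. The proximal BAX intron, 49 nt shorter, is not in the annotation, and 49 is no multiple of 3.

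BCL2L1, the gene of the apoptosis regulator BCL-X, has its 18 nt pair in the 5′ UTR. Its distal share was 14.5% (38 of 262 reads) and 20.3% (68 of 335) at 25 μg/mL DRB, against 52.2% (12 of 23) and 47.5% (19 of 40) in DMSO. The change was -32.4 points (adjusted p = 0.0377), and the pair also had more reads at 25 μg/mL DRB than in any other library, where it had 23 to 59. The α-amanitin libraries lay on the other side of DMSO, at 58.5 to 73.1%, with adjusted p of 0.833 at 1 μg/mL and 0.373 at 2 μg/mL. SNHG29 at 53 nt had 16.4% (24 of 146) and 14.9% (33 of 221) at 25 μg/mL, against 40.2% (47 of 117) and 35.3% (42 of 119) in DMSO, a change of -22.0 points (adjusted p = 0.0233). At the lower dose its 40.7 and 38.8% overlapped the DMSO values.

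The 2 pairs with a higher distal share are in coding exons. TNIP1, an inhibitor of NF-κB signalling that binds A20, had 53.7% (22 of 41 reads) and 50.5% (46 of 91) at 25 μg/mL DRB, against 14.3% (10 of 70) and 11.7% (9 of 77) in DMSO at its 74 nt pair. The change was 39.1 points, or 2.81 ± 0.43 (SE) on the log2 odds scale (adjusted p = 0.0155). The 10 μg/mL libraries, at 26.8 and 18%, lay between DMSO and the higher dose, and the 4 α-amanitin libraries, at 11.1 to 15.9%, were near DMSO. TPX2, a spindle assembly factor that activates Aurora A, had 37.0% (10 of 27) and 38.1% (16 of 42) at 25 μg/mL, against 10.0% (7 of 70) and 9.4% (6 of 64) in DMSO at its 21 nt pair. Its distal intron is not annotated, the other 6 treated libraries had 9.1 to 18.3%, and the change was 27.9 points (adjusted p = 0.0413, or 0.0523 with a replicate block).

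**Figure D4:**
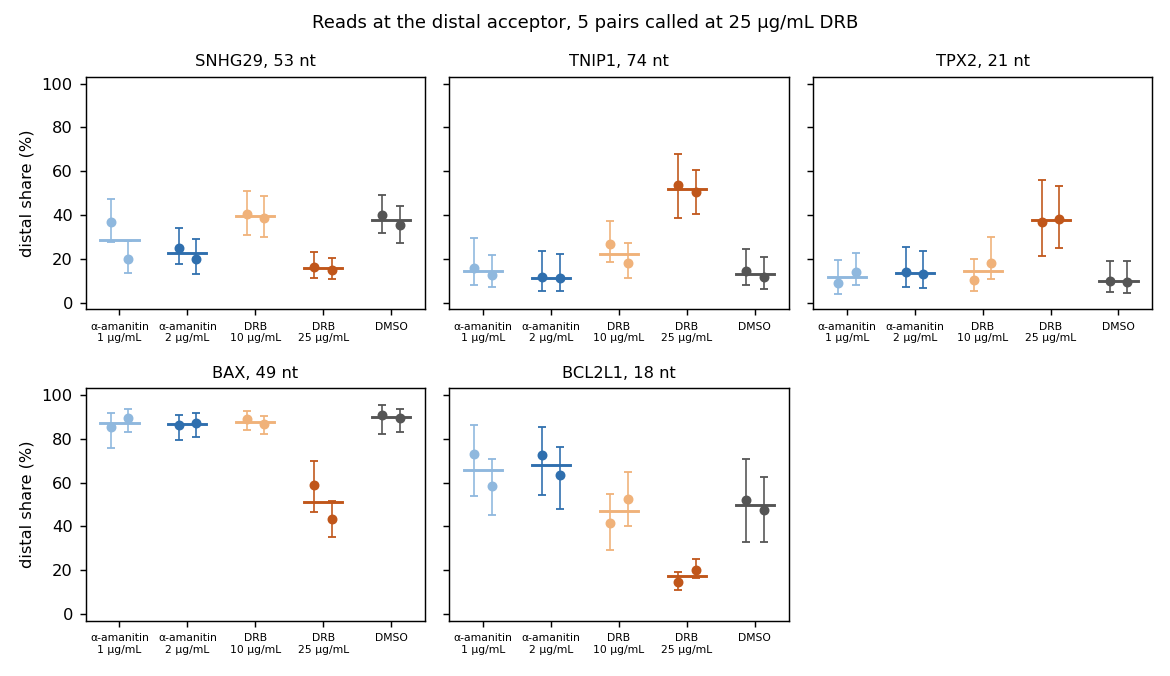
Distal share in % (vertical axis) of 5 of the 6 pairs called at 25 μg/mL DRB in each library, by condition (horizontal axis), with the Wilson 95% interval of each library's reads as a bar and the group mean as a horizontal line. BAX stands near 90% in all conditions but 25 μg/mL DRB, where it is at 58.7 and 43.3%, and TNIP1 stands at 53.7 and 50.5% there.

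Fewer pairs were called when a library was left out. Without replicate 1 of 25 μg/mL DRB 2 of the 6 remained past the threshold among 2 called, BAX and TNIP1, and without replicate 2 the count was 0. Without DMSO replicate 1 the count was 1, that of BAX, and without DMSO replicate 2 it was 0.

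Many pairs could not be tested because an acceptor was unlisted in some library. With such introns set to 0 reads, 54 of 360 pairs (15%) were called at 25 μg/mL DRB, 24 higher and 30 lower, where the background over all 4172 pairs tested was 44.8%. With 2 reads, the most that the listing minimum of 3 allows, 31 were called (8.61%, background 30.3%). An intron that failed the authors' filters can hold more, so 0 and 2 reads do not bound the result. Both settings also needed 10 reads for each acceptor over the DRB and DMSO libraries. Of the 360 pairs, 88 met this only through the 25 μg/mL libraries, which favours a difference. Of these 88, 26 were called with 0 reads and 8 with 2, and their calls are no result. The pairs 4 to 100 nt apart stood below the background in both settings. How many pairs of the background entered in this way was not counted, so the comparison is a description. A total of 25 pairs were called under both settings with the same direction, all 6 above among them. Pairs that entered only through the 25 μg/mL libraries were not taken out of the 25, nor out of the 15% and 8.61%. Among the 272 other pairs, 28 were called with 0 reads and 23 with 2. No background was counted for this set, so these counts are a description. For the lower dose the counts were 0 and 1, the 1 being the MORF4L2 pair at 51 nt (adjusted p = 0.0304 with 2 reads and 0.151 with 0), beside a background of 0.024% and 0.983%. Under α-amanitin they were 0 at both doses, where the background was 0% for the lower, and 0.0448% and 0.224% for the higher. The pairs in the next 2 paragraphs were chosen after their values were seen, and their adjusted p-values, where given, are with 0 and with 2 reads in place of the unlisted introns.

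DHX15, the helicase that takes spliceosomes apart, has acceptors 8 nt apart. Its distal acceptor was listed at 25 μg/mL DRB only, with 5 of 19 and 10 of 39 reads (26.3 and 25.6%), and was unlisted in the other 8 libraries, where the proximal one had 77 to 177 reads. All 15 distal reads come from the group with the high share, so the pair is given with no test. NELFE, a subunit of the negative elongation factor, had 31.6 and 22.4% at the lower DRB dose, 41.3 and 33.9% at the higher, and 19.4 and 12.7% in DMSO at 15 nt (25 μg/mL, adjusted p = 0.0389 and 0.0266). All its introns were listed, and among the 117 tested pairs its adjusted p was 0.0631, so that its call depends on the set of pairs. SLC35B1, a nucleotide transporter of the endoplasmic reticulum, likewise had 66.7 and 66.7% at 25 μg/mL, against 22.2 and 30.9% in DMSO at 25 nt, with an adjusted p of 0.0523 in the main test and 0.0314 and 0.0248 here. Its introns were all listed as well, so that this call too depends on the set of pairs.

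LSM7, whose 2 AGs are shown above, had a lower distal share, with 0 of 15 and 3 of 58 reads at the distal acceptor at 25 μg/mL, against 29.2 and 33.3% in DMSO at 4 nt. PRMT7, an arginine methyltransferase, had 0 of 12 and 13 of 23 distal reads at 97 nt, against 20 of 20 and 29 of 29 in DMSO. The adjusted p-values were 0.0224 and 0.0212 for LSM7. Over the DRB and DMSO libraries, the proximal PRMT7 acceptor reached 10 reads only through those at 25 μg/mL, so that pair too is given with no test. The near-identical noncoding copies DUXAP9 and DUXAP10 each have a 24 nt pair with higher distal shares at 25 μg/mL, but their distal counts were equal in 7 of 10 libraries, so that reads of either copy cannot be told apart.

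At 10 μg/mL DRB the separated pairs with at least 50 reads moved by little and are a description. SERBP1, an mRNA-binding protein of ribosomes, had 92.7 and 93.7% at 45 nt, against 89.7 and 86.8% in DMSO (adjusted p = 0.138). AP2S1, the small subunit of the clathrin adaptor AP2, had 98.1 and 97.5% at 42 nt, against 93.9 and 94.1% in DMSO (adjusted p = 0.15). The AP2S1 replicates were tight in both groups, whereas those of SERBP1 in DMSO had an SD of 2.1 points. The changes were 4.97 points for SERBP1 and 3.78 points for AP2S1. RPL30, a ribosomal protein, had 10.9 and 5.8% at 57 nt, against 4.7 and 4.5% in DMSO, with replicates that differed more than the groups. PTOV1 had 84.1 and 90.6% at 48 nt, against 76.5 and 79.7% in DMSO, and SSRP1, a subunit of the histone chaperone FACT, 90.4 and 88.9% at 7 nt, against 94.9 and 92.0% in DMSO. The second SNHG29 pair, at 79 nt, shares the distal acceptor of the first as its proximal one and had 43.9 and 40.3%, against 46.0 and 51.2% in DMSO.

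The pairs with the most reads and a balanced use of both acceptors follow as a description. The PCBP2 pair at 12 nt, with the TG acceptor, had distal shares of 42.4 and 39.7% at 1 μg/mL α-amanitin, 44.7 and 41.1% at 2 μg/mL, 41.7 and 40.5% at the lower DRB dose, 52.3 and 38.1% at the higher, and 41.7 and 38.3% in DMSO. The TG thus had more reads than the AG in 9 of the 10 libraries. SERBP1 at 18 nt had 37.0 to 42.1% in treated libraries, against 36.2 and 36.5% in DMSO, above both DMSO libraries in all 8, with changes of 1.04 to 5.10 points and adjusted p of 0.613 or more.

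Other pairs of this set varied within conditions as much as between them. HNRNPK, an RNA-binding protein of the hnRNP family, had 14.4 to 28.5% in treated libraries at 60 nt, against 20.4 and 28.7% in DMSO. In each condition its replicate 2 had the higher share. DRAP1, a corepressor of transcription, had 18.5 to 28.6% in treated libraries at 50 nt, against 35.2 and 21.2% in DMSO. NDUFA2 (a subunit of respiratory complex I, 47 nt), BEX3 (47 nt), PON2 (a paraoxonase, 36 nt) and C19orf33 (59 nt) likewise overlapped DMSO at 25 μg/mL DRB.

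MORF4L2 and STAT3 stood apart in this set. The MORF4L2 pair at 51 nt, in the 5′ UTR, had 95.1 and 94.8% at 10 μg/mL DRB, against 76.1 and 76.0% in DMSO, but 100% (20 of 20 reads) and 75.0% (36 of 48) at 25 μg/mL, where the replicates disagree. The STAT3 pair at 22 nt shares its proximal acceptor with that at 19 nt. It had 28.8 and 29.0% at 25 μg/mL DRB, against 42.0 and 45.1% in DMSO, a change of -14.7 points (adjusted p = 0.0729). The pair at 19 nt had 25.2 and 23.8% at 25 μg/mL, against 44 and 37.6% in DMSO (adjusted p = 0.0607). In both pairs the 2 libraries of 25 μg/mL DRB lay below every other library, and both share their proximal reads.

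**Figure D5:**
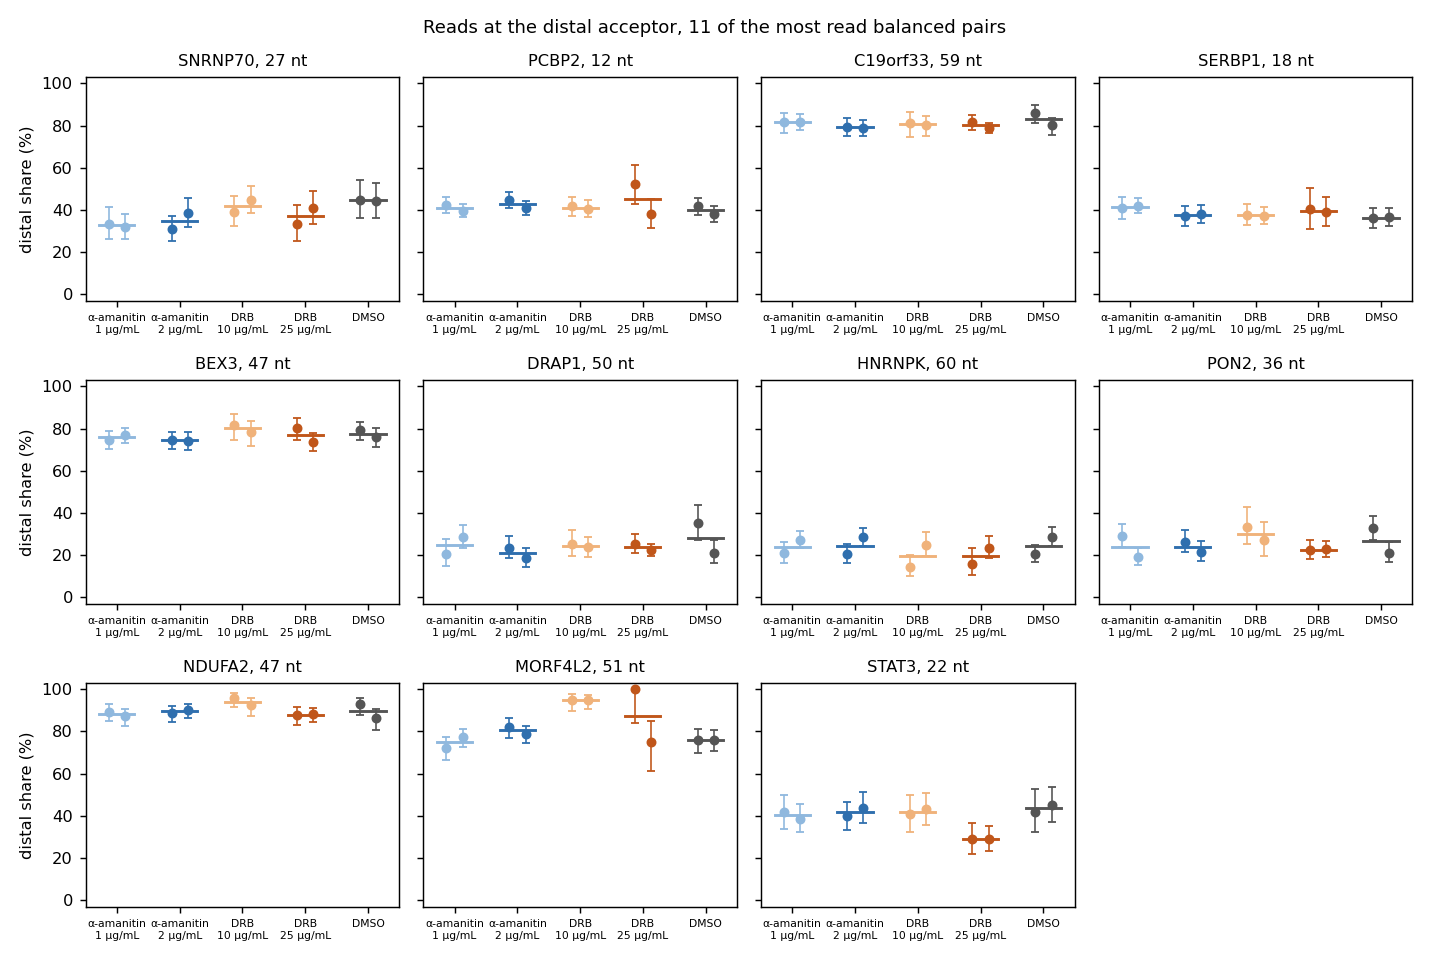
Distal share in % (vertical axis) of 11 of the 12 most read pairs with a DMSO share from 10 to 90%, in each library by condition (horizontal axis), with the Wilson 95% interval of each library's reads as a bar and the group mean as a horizontal line. SERBP1 lies between 36.2 and 42.1% in every library, whereas MORF4L2 reaches 95.1 and 94.8% at 10 μg/mL DRB and STAT3 falls to 28.8 and 29.0% at 25 μg/mL DRB.

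The lists of genes related to splicing and elongation held 150 genes, of which 30 had 38 of the pairs, and 27 pairs had at least 10 reads in every library. Of these, none passed the adjusted threshold in the test of listed pairs in any comparison. The documented pair of STAT3, 50 nt apart, whose distal acceptor gives the β isoform, had 16.7% (29 of 174 reads) and 10.7% (27 of 253) at 25 μg/mL DRB, against 4.1% (6 of 147) and 5.9% (10 of 170) in DMSO. Both DRB libraries were above all others, which had up to 7.0%, and the change was 8.69 points (adjusted p = 0.067). With unlisted introns as 0 and as 2 reads the adjusted p was 0.0395 and 0.0331. All introns of this pair were listed, so these settings changed the set of pairs and none of its reads. With 0 reads its unadjusted p was 0.0153, against 0.0114 in the main test. CELF1, a regulator of splicing, had 50.9 and 50.0% at 12 nt at 25 μg/mL DRB, against 36.4 and 21.6% in DMSO (adjusted p = 0.121). HNRNPR, with the TG acceptor, had 72.2 and 83.2% at the lower DRB dose and 75.0 and 81.6% at the higher, against 85.7 and 89.7% in DMSO (adjusted p = 0.263 and 0.385).

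In most of the other listed genes one acceptor took nearly all reads. SF1 used the distal AG of its 5 nt pair, shown above, for up to 14.6% of reads in treated libraries, unlisted in 2 of them, against 7.0 and 11% in DMSO. SRSF9 (15 nt) and HNRNPK (15 nt) had distal shares of up to 1.7 and 3.6%, and SUPT5H (20 nt) and SRSF11 (21 nt) had at least 96.7 and 93.6% in every library. CLK3, a kinase of SR proteins, had its proximal acceptor at 42 nt listed at 25 μg/mL DRB only, with distal reads of 28 of 31 and 48 of 60 there, against 14 of 14 and 23 of 23 in DMSO. Since all proximal reads come from that group, it is given with no test. RBM39, a cofactor related to U2AF, had 100% and 62.9% at 18 nt at 25 μg/mL DRB, against 48.6 and 56.9% in DMSO, on 22 to 65 reads, with its proximal intron unlisted in replicate 1. SON at 53 nt, with identical windows, had 54.5 and 85% at 25 μg/mL on 11 and 20 reads, against 84.4 and 85.7% in DMSO.

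The genes of the factors that recognise acceptors were measured by their summed split reads, of which 32 of 33 had enough for the test (limma voom). At 1 μg/mL α-amanitin 0 were called, with 6 at an unadjusted p under 0.05 and 0 with total scaling. At 2 μg/mL 5 were called (background 5.99% of 9508 genes): SLU7, a second-step factor, was higher, and SF3B3, a subunit of SF3B, PTBP1, the pyrimidine tract binding protein, RBM39 and PUF60 were lower. The count at 2 μg/mL was 0 without replicate 1 of that dose, without DMSO replicate 1 or without DMSO replicate 2. At 10 μg/mL DRB 10 were called, 5 in each direction (background 14.9% of 9346 genes), or 8 higher and 3 lower with scaling by total split reads, and the count was 0 without any 1 of the 4 libraries.

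At 25 μg/mL DRB 25 of the 32 were called, 10 higher and 15 lower, where 60.8% of all genes were. With scaling by total split reads the split was 8 higher and 18 lower, and 16 were called without replicate 2 of this dose or without DMSO replicate 2. The median of all genes was -1.02 on the log2 scale with TMM scaling and -1.48 with total scaling. That of the list was -0.40 and -0.83, so the values below are read against those medians. Unlisted introns add no reads to these sums, and NKAP and SUGP1, called lower, had 0 CPM at this dose. The 25 μg/mL libraries listed 45513 and 60620 introns, against 74739 and 75422 in DMSO. The part of this listing limit in the lower levels was not tested. SF3B3 had 105.5 ± 16.0 CPM at 25 μg/mL DRB and 438 ± 3.6 CPM in DMSO (SD, n = 2 each), a log2 change of -2.03 (adjusted p = 0.000584). SF3B4, another SF3B subunit, had 350 ± 10.3 CPM against 92.6 ± 14.5 CPM in DMSO, a change of 1.91, and SLU7 had 150 ± 15.1 CPM against 75.7 ± 6.86 CPM in DMSO, a change of 1.01. U2AF1, the subunit that contacts the AG, had 160 ± 11.2 CPM against 271 ± 6.98 CPM in DMSO, a change of -0.77 that is smaller than the median fall of all genes. Fewer cells and less RNA per cell cannot be told apart in these bulk libraries, and the part of these gene levels in the distal shares was not tested.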

How the data were processed

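Per the labels and the study's methods, the authors aligned RNA-seq reads to GRCh37 (hg19), with STAR 2.7.3a in the submitters' processing notes, and processed splice junctions with the IPSA pipeline. The deposited files list, for each intron and library, whole-number split-read counts; the lowest count joining both splice sites was 3 and the lowest sum of the 5 deposited counts 11. They carry no normalization and sit in a text field, so the unit was recorded as other and edgeR and DESeq2 were not used. 

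The distal share was computed from these counts for pairs with 10 reads or more at each acceptor. A quasi-binomial test compared distal with proximal reads in the 2 doses of a drug and DMSO, with the spread moderated by limma 3.58.1 (R 4.3.3) and not allowed below 1, and p-values adjusted over all acceptor pairs of any distance. Gene levels used split reads per gene with TMM and limma voom. Intervals are Wilson at 95% and cover counting error only; reads carry no molecular identifiers. Annotation was GENCODE 44 on GRCh37, and sequences came from the genome with pysam 0.24.0. The members, gene lists and tests were chosen with earlier results of these data known. Named pairs were, per comparison, those past an adjusted p of 0.05 with libraries that do not overlap, or where fewer than 3 passed, the 6 with at least 50 reads in every library and the largest separated change; the 12 with the most reads and a DMSO share from 10 to 90%; and those in the 5 gene lists with at least 10 reads in every library. Alternatives were unlisted introns as 0, other read minimums, other libraries in the fit, a replicate block, limma on the log odds, 1 pair per 5′ splice site and each library left out; unlisted introns as 2 reads was added after the calls with 0 were seen. The test was checked on simulated data. A paired reading of the replicate numbers is given with the alternatives. Of the named pairs, 3 are not reported here.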

Additional observations from a re-analysis of the deposited data

How the results depend on the processing

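At 25 μg/mL DRB the main count of 6 called pairs became 54 with unlisted introns as 0 (15%, background 44.8%), 31 with 2 reads (8.61%, background 30.3%), 3 with at least 30 reads of a pair, 3 with only that dose and DMSO, 13 with all 10 libraries in 1 fit, and 0 to 2 with each library left out. At 10 μg/mL the main count of 0 became 1 with unlisted introns as 2 reads, with all 10 libraries in 1 fit and with limma on the log odds. Under α-amanitin the count was 0 in each of 13 alternatives at both doses. The median change in distal share at 25 μg/mL DRB was 0.49 points, 0.027 with at least 30 reads and 0.010 to 0.998 with each library left out. At 10 μg/mL it was 1.04 points, 0.30 with unlisted introns as 0, 0.29 with at least 30 reads and 0.45 to 1.09 with a library left out. At 2 μg/mL α-amanitin it was 0.67 points and 0.58 to 1.22 with a library left out. The difference of either drug from DMSO turned to -1.62 points with at least 30 reads. For acceptor factor genes, a library left out gave 0 to 5 calls at 2 μg/mL α-amanitin, 0 at 10 μg/mL DRB and 16 to 21 at 25 μg/mL DRB. The deviations of same-numbered libraries correlated with those of DMSO at 0.18, 0.037, -0.032 and 0.11 over 107 pairs, in the order of the conditions. Replicates differed by about as much as sampling of reads alone gives, so these values cannot show whether same-numbered libraries were paired. With a replicate block 6 pairs were called at 25 μg/mL DRB, 5 of them among the 6 of the main test (TPX2 had an adjusted p of 0.0523), and it gave 13 acceptor factor genes at 2 μg/mL α-amanitin, against 5 without it. The causes of these differences were not tested.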
